A study of Homo sapiens with 3 samples.

Results

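MATR3 (matrin 3) clusters were examined in 8 human genes whose products edit or remove self nucleic acids: ADAR, ADARB1, RNASEH2A, RNASEH2B, RNASEH2C, RNASEH1, SAMHD1 and TREX1. A cluster belonged to one of these genes when the deposited annotation gave it that gene's name. This took 236 of the 388807 clusters in the data, 73 of 133088 in replicate 1, 78 of 131679 in replicate 2 and 85 of 124040 in replicate 3. Of the 8 genes, 6 had at least 1 cluster. MATR3, a nuclear RNA- and DNA-binding protein, was immunoprecipitated in PAR-CLIP of untreated, wild-type HEK293 cells, in 3 biological replicates. HEK293 is an established line from human embryonic kidney. PAR-CLIP feeds cells a photoreactive uridine, crosslinks it to bound protein with ultraviolet light, and leaves T-to-C changes in the cDNA at crosslinked uridines. A cluster is a group of overlapping reads, of which some or all carry such changes. All 3 libraries belong to one group. No control library and no measure of RNA abundance was used here, so more RNA of a gene and more MATR3 on each RNA cannot be told apart.

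Cells carry sensors for foreign nucleic acid, cGAS for DNA and MDA5 and related proteins for double-stranded RNA. The products of several of these genes keep the cell's own nucleic acids from setting off such sensors. ADAR and ADARB1 (ADAR2) turn adenosine into inosine in double-stranded RNA, which breaks up its pairing. RNase H2, built of the catalytic subunit RNASEH2A and the subunits RNASEH2B and RNASEH2C, removes ribonucleotides and RNA-DNA hybrids, RNASEH1 cuts the RNA strand of longer hybrids, TREX1 degrades cytosolic DNA, and SAMHD1 breaks down deoxynucleotides. Inherited loss of ADAR, TREX1, SAMHD1 or any RNase H2 subunit causes the interferon disease Aicardi-Goutières syndrome.

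Positions are hg38 and exons are those of GENCODE release 44, in the transcript that release marks as canonical. Clusters of different replicates that shared 1 nt or more of a strand were merged into a site. The sites below are shown because they were the 2 that all replicates shared under a member's name. Capitals mark bases covered by clusters of all 3 replicates, in the direction of the RNA with T for U.
ADAR intron, chr1:154622126-154622258, minus strand: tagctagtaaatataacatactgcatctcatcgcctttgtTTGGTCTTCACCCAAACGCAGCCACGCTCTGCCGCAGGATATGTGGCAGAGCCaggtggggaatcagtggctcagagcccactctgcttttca
RNASEH2B intron 1, chr13:50915264-50915416, plus strand: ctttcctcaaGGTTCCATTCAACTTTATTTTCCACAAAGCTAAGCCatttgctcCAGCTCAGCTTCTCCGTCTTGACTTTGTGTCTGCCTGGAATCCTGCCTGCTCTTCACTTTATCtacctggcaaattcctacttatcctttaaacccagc

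The ADAR stretch is the core of a longer site, chr1:154621977-154622287, with 32, 98 and 27 reads in replicates 1, 2 and 3. It lay upstream of the canonical ADAR start, in the first intron of longer ADAR transcripts. The RNASEH2B site had 43, 41 and 39 reads, the most even of the sites described here. Pyrimidines made up 53.4% of the printed ADAR bases and 68.0% of the printed RNASEH2B bases. A motif known for MATR3, ATCTT with T written for U, occurs in the longer ADAR site but in neither printed stretch.

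Of the 21 sites covered in 2 replicates, 4 are shown as examples, not as a ranking, with capitals where both clusters lie.
RNASEH2B intron 1, chr13:50925844-50925939, plus strand: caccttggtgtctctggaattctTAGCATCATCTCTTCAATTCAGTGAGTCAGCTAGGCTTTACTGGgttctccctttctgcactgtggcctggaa
RNASEH2B intron 1, chr13:50915823-50915900, plus strand: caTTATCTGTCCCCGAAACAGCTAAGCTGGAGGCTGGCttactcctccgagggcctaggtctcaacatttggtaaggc
ADAR intron, chr1:154621822-154621893, minus strand: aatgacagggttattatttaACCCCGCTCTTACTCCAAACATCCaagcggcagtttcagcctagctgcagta
RNASEH1 intron 2, chr2:3552882-3552941, minus strand: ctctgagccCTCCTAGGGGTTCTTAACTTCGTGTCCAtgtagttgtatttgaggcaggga

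The RNASEH2B site at chr13:50925844-50925939 had 61 reads in replicate 1 and 25 in replicate 3, and that at chr13:50915823-50915919 had 13 in replicate 1 and 28 in replicate 2. The ADAR site had 11 and 23 reads in replicates 1 and 2, and the RNASEH1 site 14 and 20 in replicates 1 and 3.

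By gene, 5 of the 8 had a cluster in every replicate: ADAR, ADARB1, RNASEH2B, RNASEH2C and RNASEH1. The background was 40.7% of 20020 protein-coding genes, and 55.8% had a cluster in any replicate against 6 of the 8 here. The share rises with gene length, so the genes were also set against their length class. Above 100 kb, RNASEH2B and ADARB1 were both covered in all replicates (background 56.4%). From 30 to 100 kb, ADAR was and SAMHD1 was not (54.3%), and from 10 to 30 kb RNASEH1 was (39.2%). Below 10 kb, RNASEH2C was, and RNASEH2A and TREX1 were not (15.8%). Levels are given as reads in the gene's clusters per 1000000 reads in clusters with a gene name, called normalised reads. Levels of different genes are compared per kb of gene, and totals say only where the reads were.

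**Figure D1:**
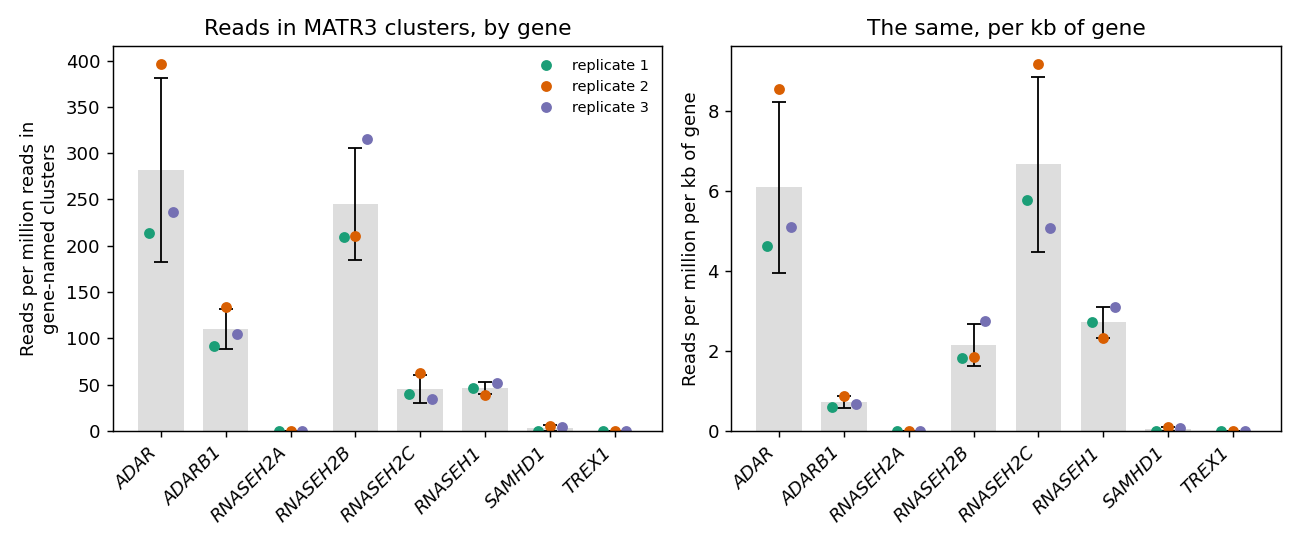
Normalised reads in MATR3 clusters for the 8 genes (left, reads per 1000000 reads in gene-named clusters) and the same per kb of gene (right). Points are the 3 replicates, bars the mean and error bars the SD; ADAR and RNASEH2B have the most reads, RNASEH2C and ADAR the most per kb, and RNASEH2A and TREX1 are at 0.

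Among the editors, ADAR (chr1:154581695-154628013, minus strand) carried 24, 19 and 24 clusters with 310, 526 and 321 reads. That is 214, 396 and 236 normalised reads, 282 ± 99.3 (SD, n = 3), or 6.09 ± 2.14 per kb. Replicate 2 was the highest with the fewest clusters. Its excess lay in the 3′ UTR, where 2 clusters held 237 of its 526 reads and where replicates 1 and 3 had no named cluster. At the very 3′ end of the gene they had 1 unnamed cluster each, with 7 and 13 reads. Intron reads were much closer, at 295, 283 and 256. The cluster at chr1:154582475-154582582 alone had 173 reads, 71 of them distinct, with T-to-C in 73.4%, and was the largest of all 236. A 30-nt stretch around its deposited mode position is shown because the whole cluster had the most reads of any in ADAR. How many of those reads cover the stretch is not known.
ADAR 3′ UTR, exon 15, chr1:154582488-154582517, minus strand: acgagccgtgtcagatcgcacatccctgcg

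The other ADAR 3′ UTR cluster, chr1:154584642-154584703, had 64 reads with T-to-C in 50% of them. In replicate 3 the 3′ end of the gene carried 2 coding clusters with 27 reads and 2 clusters across an intron and coding border with 38 reads, all in exons 12 to 15 and none found in another replicate. Just past the 3′ end, within 5 kb on the same strand, 4, 6 and 3 clusters without a gene name held 81, 42 and 37 reads in replicates 1, 2 and 3. Clusters deposited under another gene's name lay among them on this strand. Whether the unnamed reads belong to ADAR was not tested.

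ADAR clusters were dense near its 5′ end. The 19.827 kb upstream of the canonical start held 15, 8 and 11 clusters with 206, 195 and 126 reads, and the 26.13 kb of the canonical transcript held 9, 11 and 13 clusters with 104, 331 and 195 reads. This is 0.572 ± 0.177 clusters per kb upstream and 0.421 ± 0.0765 within (SD, n = 3); replicate 2 had a slightly higher density within than upstream (0.421 against 0.403), so the order did not hold in every replicate. In the densest 3 kb, chr1:154621822-154624462, lay 20 of the 67 ADAR clusters and 388 of its 1157 reads, with 6, 7 and 7 clusters and 118, 183 and 87 reads. These intervals were chosen after the values were seen. Of the 20 clusters, 12 were found in another replicate. The largest ADAR cluster of replicate 1 (chr1:154624088-154624192, 51 reads) was in this window, yet had no overlap in the other replicates. That of replicate 3 was in intron 6 (chr1:154593475-154593691, 63 reads) and is shown because it holds ATCTT, in capitals, at 2 places.
ADAR intron 6, chr1:154593475-154593691, minus strand: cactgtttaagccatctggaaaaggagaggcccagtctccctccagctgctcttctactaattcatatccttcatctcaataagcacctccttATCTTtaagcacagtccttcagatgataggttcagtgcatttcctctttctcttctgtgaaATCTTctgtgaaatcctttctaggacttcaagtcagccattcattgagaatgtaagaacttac

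ADARB1 (chr21:45073853-45226560, plus strand) had a similar number of clusters but far fewer reads. Its 17, 21 and 20 clusters held 133, 178 and 142 reads, or 91.8, 134 and 104 normalised reads, 110 ± 21.7 (SD, n = 3). Per kb this was 0.721 ± 0.142, below the 1.55 median of the 8156 protein-coding genes with clusters in all replicates, and below ADAR in each replicate. All 58 clusters were intronic. The median ADARB1 cluster had 7 reads and the largest 22, and 42 of 58 (72.4%) rested on 1 or 2 distinct reads, against 17 of 67 (25.4%) in ADAR. Intron 1 held 9, 15 and 8 of them and intron 2 held 5, 5 and 9. The densest 3 kb, chr21:45146943-45149315 in intron 2, had 4, 2 and 3 clusters with 33 reads in each replicate. The largest cluster, in replicate 2, had 22 reads, all with T-to-C, and did not recur. It is shown as the cluster with the most reads. The site at chr21:45146943-45146982 also had 22 reads, 12 in replicate 1 and 10 in replicate 3.
ADARB1 intron 2, chr21:45148590-45148692, plus strand: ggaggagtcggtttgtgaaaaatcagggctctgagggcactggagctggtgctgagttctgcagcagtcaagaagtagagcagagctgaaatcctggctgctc

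Of the RNase H2 subunits, RNASEH2B (chr13:50909747-51024120, plus strand) carried the most reads and RNASEH2A (chr19:12806584-12813640, plus strand) had no cluster, nor any unnamed cluster on its strand. RNASEH2B had 21, 24 and 30 clusters with 303, 280 and 428 reads. That is 209, 211 and 315 normalised reads, 245 ± 60.6 (SD, n = 3), or 2.14 ± 0.53 per kb. Replicate 3 was the highest, with the other replicates nearly equal. Introns held all clusters in replicates 1 and 2 and 26 of 30 in replicate 3, the remainder being 1 coding cluster with 6 reads and 3 clusters of the deposited 3′ UTR class with 24 reads. The 3 lie beyond the canonical end, where GENCODE release 44 has an exon of another RNASEH2B transcript and an intron of a longer one.

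RNASEH2B reads gathered in introns 1 and 9 of the canonical transcript. Other RNASEH2B transcripts have exons there: all 12 intron 9 clusters and the intron 1 site shared by all replicates touch one, as do 22 of the 71 RNASEH2B clusters of the intron class, against 5 of 59 in ADAR, 1 of 58 in ADARB1 and 1 of 20 in RNASEH1. Intron 1 (17.266 kb) had 8, 10 and 11 clusters with 155, 137 and 129 reads, and intron 9 (4.399 kb) had 5, 3 and 4 clusters with 92, 61 and 120 reads. Per kb this was 0.560 ± 0.0885 clusters in intron 1 and 0.909 ± 0.227 in intron 9, against 0.369 ± 0.0492 over the canonical transcript that includes both (SD, n = 3). Beyond the canonical end, the 67.358 kb that only longer transcripts span had 5, 8 and 10 named clusters with 39, 59 and 133 reads, or 0.114 ± 0.0374 clusters per kb. This density leaves out 1, 5 and 1 unnamed clusters on the same strand there, with 6, 37 and 9 reads. These intervals were also chosen with the values in view. The largest cluster of replicate 1 was the intron 1 site at chr13:50925844-50925939, that of replicate 2 was the site shared by all replicates, and that of replicate 3, with 46 reads, was in intron 9 at chr13:50950534-50950615 and did not recur.

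**Figure D2:**
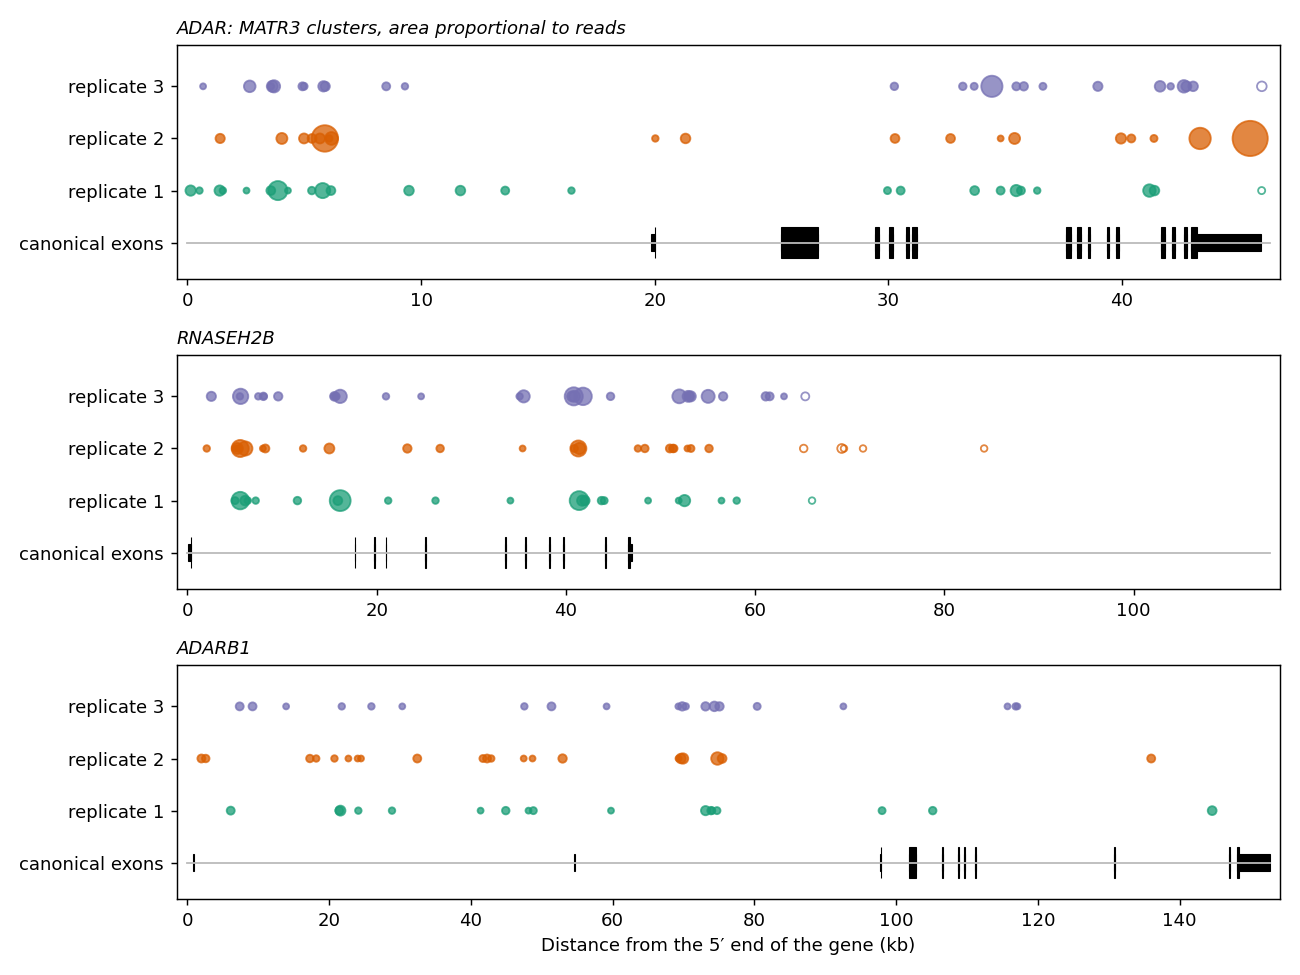
Positions of MATR3 clusters along ADAR, RNASEH2B and ADARB1, in kb from the 5′ end of each gene, with a line for each replicate and the canonical exons in black (thick where coding). Circle area is proportional to reads and open circles are clusters with no gene name; the ADAR clusters crowd near the 5′ end, the 173-read ADAR cluster stands at the 3′ end in replicate 2, and ADARB1 circles are small throughout.

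RNASEH2C (chr11:65714005-65720818, minus strand) differed from the other members in the class of its named clusters. All 13 of its clusters were in the 3′ UTR, in exon 4, the last of the canonical transcript. The 4, 5 and 4 clusters had 57, 83 and 47 reads, or 39.4, 62.5 and 34.6 normalised reads, 45.5 ± 14.9 (SD, n = 3). The stretch they fill, chr11:65717800-65719268, was hit in every replicate, but no cluster overlapped one of another replicate. Over all genes, 23.9% of 3′ UTR clusters overlapped a cluster of another replicate. KAT5, a lysine acetyltransferase gene on the opposite strand, had 1, 7 and 1 clusters within the span of RNASEH2C, with 18, 64 and 11 reads. Part of the largest cluster of each replicate is shown, because the 3 lie at different places of the same 3′ UTR.
RNASEH2C replicate 1, chr11:65717810-65717839, minus strand: gaccttagccccttgctggtcccactcaca
RNASEH2C replicate 2, chr11:65718582-65718611, minus strand: tccactttggagagttcatagcctaaagca
RNASEH2C replicate 3, chr11:65719036-65719065, minus strand: gtgtgaggatgtactggccctgggcagagg

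These clusters had 26, 24 and 16 reads, with T-to-C in 92.3%, 75% and 93.8% of them. None of the 13 RNASEH2C clusters contained ATCTT.

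RNASEH1 (chr2:3541430-3558333, minus strand) had 7, 8 and 6 named clusters with 67, 52 and 71 reads. That is 46.3, 39.2 and 52.2 normalised reads, 45.9 ± 6.55 (SD, n = 3), the smallest spread relative to the mean among the 5 genes covered in all replicates, for named clusters. All but 1, a start codon cluster with 6 reads in replicate 2, were intronic. Intron 2 held 6, 3 and 6 of them, and 14 of the 21 lay in chr2:3552882-3555462. The largest clusters of replicates 1 and 3 were the shared intron 2 site shown above.

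The deposited gene name missed most reads inside RNASEH1 in replicates 1 and 2. On the same strand inside the gene, the deposited tables had 7, 4 and 4 further clusters with no gene name, with 136, 234 and 66 reads. A gene model known only by its identifier also overlaps RNASEH1 on this strand, and reads of the 2 cannot be told apart. All 15 clusters were in the last canonical exon, chr2:3541430-3545871, where coding sequence ends at 3545788 and the remainder is 3′ UTR in GENCODE release 44. They held 436 reads against 190 in the named clusters, or 69.6% of the reads by position. Counted by position, RNASEH1 had 140, 215 and 101 normalised reads, 152 ± 58.2 (SD, n = 3), the largest relative spread of the 5. Of 10 such sites, 1 was shared by all replicates (chr2:3542760-3542836, with 18, 16 and 21 reads), and those at chr2:3542256-3542465 (54 and 95 reads) and chr2:3544115-3544448 (18 and 100 reads) by replicates 1 and 2. Their shared bases are shown because the rule by name leaves them out: all those common to the 3 replicates, then 30 nt from each of the other sites. In replicate 1, the 30 nt from chr2:3542256-3542465 lie in a cluster of 9 reads with T-to-C in 44.4%. They are not in the larger cluster of that site, which had 45 reads.
RNASEH1 3′ UTR, chr2:3542785-3542798, minus strand: TACATAGCCTCCTC
RNASEH1 3′ UTR, chr2:3542361-3542390, minus strand: CTGATGAATCTTGTTTTCTTCCCCTGACAG
RNASEH1 3′ UTR, chr2:3544395-3544424, minus strand: CACTGTTTTCCCTGCCGTTTATCTGTTGAA

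The same count by position added 2 clusters with 20 reads to ADAR and 7 with 52 reads to RNASEH2B, and none to the other members. RNASEH1-AS1, an antisense RNA gene, had 2, 1 and 2 clusters upstream on the opposite strand, with 20, 41 and 33 reads.

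**Figure D3:**
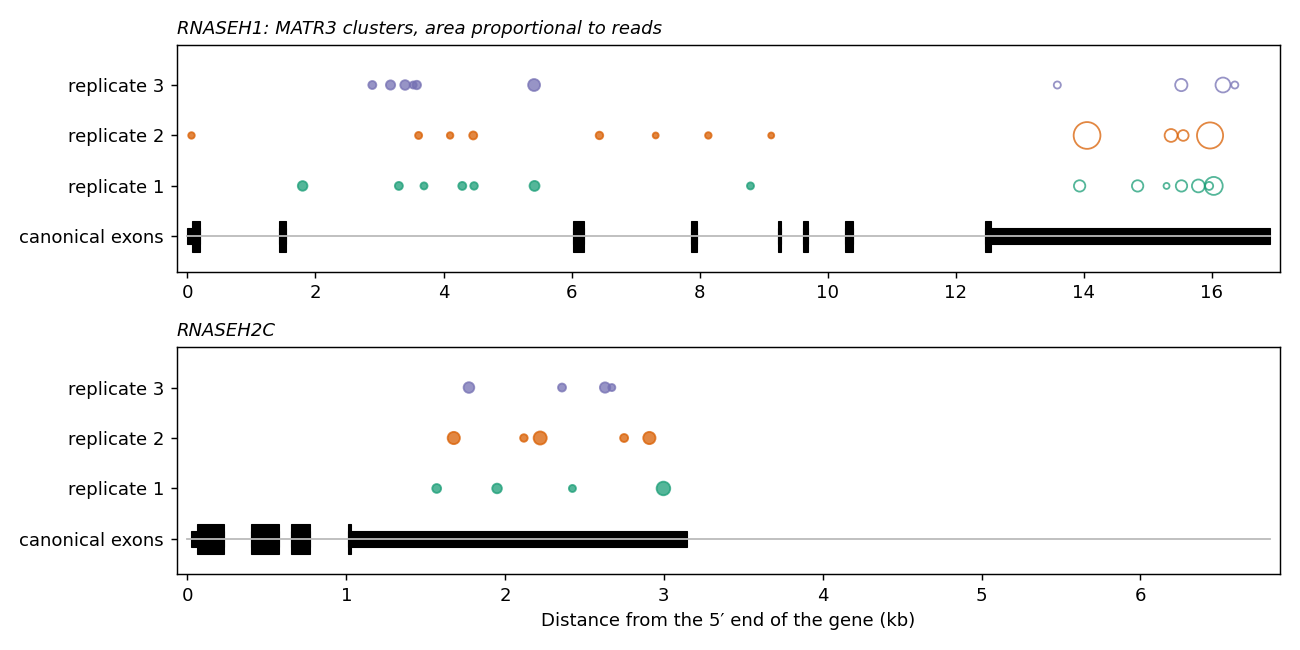
Positions of MATR3 clusters along RNASEH1 and RNASEH2C, in kb from the 5′ end of each gene, with a line for each replicate and the canonical exons in black (thick where coding). Circle area is proportional to reads and open circles have no gene name; the named RNASEH1 clusters are intronic and the 15 open ones lie in its last exon, while the RNASEH2C clusters fill the last exon without overlap between replicates.

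SAMHD1 (chr20:36890229-36951893, minus strand) had no cluster in replicate 1 and 1 in each of the others. That of replicate 2 was in intron 13 with 7 reads from 2 distinct reads, and that of replicate 3 in coding exon 4 with 6 copies of 1 distinct read. They are 5.27 and 4.42 normalised reads, near the least that the tables list, and they do not overlap. TREX1 (chr3:48465811-48467645, plus strand), which overlaps ATRIP on the same strand, had no cluster. An ATRIP cluster with 9 reads was upstream of it in replicate 2. Since the tables hold only clusters with at least 4 T-to-C reads and 2 conversion locations, a gene without one is not known to have a level of 0.

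Per kb of gene, RNASEH2C (6.67 ± 2.19 normalised reads, SD, n = 3) and ADAR (6.09 ± 2.14) were highest by deposited gene name and overlapped, with ranks 957 and 1102 among 8156 protein-coding genes covered in all replicates. RNASEH1 (2.71 ± 0.388, rank 2733) and RNASEH2B (2.14 ± 0.53, rank 3323) followed and also overlapped. The place of RNASEH1 rests on the deposited names. With its unnamed 3′ UTR clusters it had 8.29, 12.7 and 5.96 per kb in replicates 1, 2 and 3, higher than both RNASEH2C and ADAR in each. ADARB1 (rank 5689) was below these in every replicate. The middle 50% of those genes lay between 0.562 and 3.74 per kb. The order also depends on the length used, which is the full GENCODE span of each gene. For RNASEH2B, 67.358 of its 114.374 kb lay beyond the canonical end and held 231 of its 1011 reads. For RNASEH2C, all named clusters lay in the last canonical exon of a 6.814 kb span. Levels per kb of canonical transcript were not compared.

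By class, 209 of the 236 clusters were intronic with 2459 reads, and 18 were in 3′ UTRs with 448 reads. The other 9 were coding, across an intron and coding border, on a start codon or across a 5′ UTR and intron border. ADARB1 alone supplied 58 of the 236, all intronic, and RNASEH2C 13, none intronic. Shares without either gene were not tested. Introns held 88.8% ± 4.23 of member clusters and 83.5% ± 0.419 of all other named clusters (SD, n = 3). The difference was above 0 in 3 of 3 replicates, 9.21, 5.12 and 1.57 percentage points, with an exact two-sided sign-flip p of 0.25, the smallest that 3 replicates allow (0.625 after Benjamini-Hochberg adjustment over 5 such tests). With the unnamed clusters counted for the members alone, as above for RNASEH1, their intron share was 80.5%, below the other named clusters by 3.02 percentage points. That count did not class 7 unnamed RNASEH2B clusters as intronic, though they lie in an intron of a longer transcript. The other named clusters were not recounted, so the direction by position cannot be read from this value. 3′ UTRs held 7.56% ± 1.84 of member and 5.84% ± 0.411 of other clusters, higher in 2 of 3 replicates (exact p = 0.5, adjusted 0.833). With the unnamed clusters counted for the members alone, and those in exons taken as 3′ UTR, the member share was 13.5%. It was 7.65 percentage points above the other clusters, which were still counted by deposited name, so the 2 sides are not alike.

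**Figure D4:**
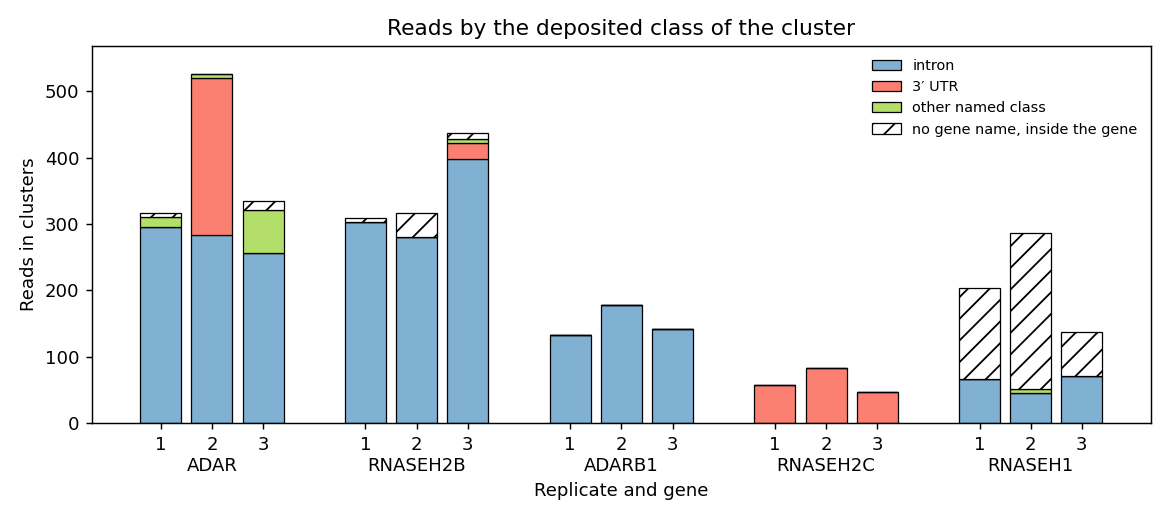
Reads in clusters of ADAR, RNASEH2B, ADARB1, RNASEH2C and RNASEH1 in each replicate, stacked by the deposited class, with hatching for clusters inside the gene that have no gene name. Intron reads dominate ADAR, RNASEH2B and ADARB1, the 237 ADAR 3′ UTR reads occur in replicate 2, RNASEH2C is 3′ UTR alone, and unnamed reads outnumber named ones for RNASEH1 in replicates 1 and 2 but not in replicate 3.

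Recurrence was near the background over the members together and varied by gene. Among member clusters, 21.7% ± 1.55 overlapped a cluster of another replicate, as did 21.7% ± 0.677 of other named clusters (difference -0.0778 ± 2.23 percentage points, SD, n = 3, higher in 2 of 3 replicates, exact p = 1). Over all named clusters the share was 21.7%. By gene, it was 24 of 67 clusters (35.8%) in ADAR, 6 of 21 (28.6%) in RNASEH1, 17 of 75 (22.7%) in RNASEH2B, 4 of 58 (6.90%) in ADARB1, and 0 of 13 in RNASEH2C. Merging gave 208 sites, of which 2 were in all 3 replicates and 21 in 2, and 185 in 1. For all named clusters 1.21% of 298168 sites were in all 3 replicates and 11.2% in at least 2. ADAR supplied 10 of the 21 sites seen in 2 replicates, RNASEH2B 6, RNASEH1 3 and ADARB1 2. Clusters covered more of ADAR (2.40%, 3.02% and 2.51% of its length) than of ADARB1 (0.379%, 0.541% and 0.442%). They covered 2.73%, 5.05% and 2.30% of RNASEH2C, where all 13 lay in the last canonical exon. Whether recurrence follows coverage was not tested.

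T-to-C was present in 85.5% ± 2.80 of reads in member clusters and 86.1% ± 0.633 in other named clusters (SD, n = 3), a difference of -0.607 ± 2.18 percentage points (exact two-sided p = 1). ATCTT on the RNA strand was contained in 6.74% ± 1.14 of member clusters and 9.34% ± 0.395 of others, lower in 3 of 3 replicates, with differences of -4.30, -1.33 and -2.17 percentage points (exact two-sided p = 0.25, adjusted 0.625). The median cluster length was 38.8 nt for members and 38.7 nt for others, and pyrimidines made up 57.2% of both. ADAR and RNASEH2B had 7 clusters each with ATCTT, ADARB1 2, and RNASEH2C and the named RNASEH1 clusters none. Of the unnamed RNASEH1 clusters, 3 had it.

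By likeness of intron and 3′ UTR normalised reads in each replicate and of gene length, on log2 scales, the genes nearest to ADAR were GTF3C5, a subunit of an RNA polymerase III factor, at a distance of 2.02, CTPS1, a CTP synthase, at 2.76, and XPOT, a tRNA exporter, at 3.05. Those nearest to RNASEH2B were closer: EP300, a histone acetyltransferase (0.838), PRRG1 (0.882) and SSH1, a cofilin phosphatase (0.996).

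Of 25 further genes linked to the editing, clearance or sensing of nucleic acids, 13 had clusters in all replicates, 2 in 1 replicate (BANF1 and RIGI) and 10 in none. The background given above is 40.7% of protein-coding genes for all replicates and 55.8% for any replicate, neither matched for gene length. A lack of clusters was thus common over all genes. The 10 without a cluster included IFIH1, which encodes MDA5, and ZBP1, a sensor of Z-form nucleic acid. They also included the lysosomal DNase gene DNASE2 and ADARB2, the third ADAR family member. The median per kb over the 13 was 1.55 normalised reads, equal at this rounding to that over all genes covered in all replicates. The most reads were in PNPT1 (130 ± 24.5 normalised reads, SD, n = 3) and SUPV3L1 (121 ± 27.7), which degrade RNA in mitochondria. Per kb these were 2.17 and 4.2, against 2.14 for RNASEH2B. The next were SKIC3, of the cytosolic RNA exosome's helper complex (88.8 ± 16.9), FEN1, a flap endonuclease (75 ± 20.7, and the highest of the 13 per kb at 17.3), and EXO1, an exonuclease (73.2 ± 49.4). FEN1, TREX2 (58.3 ± 9.60), RNASET2 and RIGI share part of their span with another gene on the same strand. The others with clusters in all replicates were RNASET2, SKIC8, EIF2AK2, PLD3, LSM11, DNASE1 and SKIC2, from 57.2 ± 32.3 down to 5.13 ± 2.13.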

How the data were processed

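MATR3 PAR-CLIP clusters of 3 wild-type HEK293 libraries, labelled biological replicates, were analysed. The authors deposited one table of clusters for each replicate. Reads, distinct reads and conversion locations are whole counts per the file headers, not normalised. The deposited T-to-C share of a cluster's reads is a fraction. The deposited conversion specificity, on a log10 scale, and mode score, a score of no stated range, were not used. The build is hg38 per the submitters' processing notes. The aligner, cluster caller and annotation release are not given in the sources used here. Sequences of all 260 clusters of the members, with and without names, equalled hg38 at the deposited positions.

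The tables hold 1649124, 1506682 and 1532602 reads in clusters for replicates 1 to 3, of which 1448303, 1328093 and 1358924 are in clusters with a gene name. Every cluster has at least 4 reads, 4 T-to-C reads and 2 conversion locations. The depth of the whole libraries is unknown, and reads may be copies of one molecule.

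Classes and gene names are those deposited; of 13557 names, 12143 (89.6%) matched GENCODE release 44. Member clusters were compared with all other named clusters by exact two-sided sign-flip tests over 3 replicates, adjusted over 5 tests (scipy 1.17.1, pandas 2.3.3). The computation was tested on simulated data. Members and lists were chosen with earlier results of these data known. Named were all members, the 3 genes nearest to each of the 2 members with most reads, listed genes with clusters in all replicates, sites in all replicates and the largest clusters. Other genes of the list and sites in 2 replicates were named after their values were seen. One gene and one site are not reported here. Alternatives were stricter filters on reads, conversion locations and distinct reads, weighting by reads, a stricter overlap, other denominators, leaving out each replicate, and, added after seeing the data, counting unnamed clusters inside a member.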

Additional observations from a re-analysis of the deposited data

How the results depend on the processing

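The count of 5 genes covered in all replicates held under each filter. Introns stayed above the other named clusters in all settings but the count by position, 3′ UTRs stayed above in all settings, and the recurrence difference changed sign between settings; the causes were not tested. With at least the median reads, there were 43.7 member clusters a replicate, 3′ UTRs held 11.2%, 19.1% recurred, T-to-C was in 82.2% of reads and ATCTT in 9.58% of clusters. With at least 3 conversion locations these were 37.7 clusters, 84.2% in introns, 12.0% in 3′ UTRs, T-to-C in 81.9% and ATCTT in 11.5%. With at least 3 distinct reads they were 49.0 clusters, 84.5% in introns, 10.8% in 3′ UTRs, 24.4% recurring, T-to-C in 81.7% and ATCTT in 9.35%. Weighted by reads, introns held 82.6%, 3′ UTRs 14%, 29.7% recurred and 12.3% had ATCTT. Requiring an overlap of 50% of both clusters left 9.82% recurring, and the mean over clusters put T-to-C at 90.9%. Counting unnamed clusters, chosen after seeing the data, gave 86.7 clusters, 80.5% in introns, 13.5% in 3′ UTRs and 23.5% recurring. In that count, 7 RNASEH2B clusters lying in an intron were not classed as intronic, and the other named clusters were not recounted. Leaving out each replicate in turn gave 75.5 to 81.5 clusters, 5 to 6 genes, 86.6% to 90.8% in introns, 6.86% to 8.60% in 3′ UTRs, 10.8% to 13.9% recurring (fewer replicates to recur in), T-to-C in 84.5% to 87.1% and ATCTT in 6.27% to 7.38%. ATCTT stayed rarer in members than in other named clusters under each setting run. No paired comparison of groups was possible, because all libraries belong to the same group. Members and other clusters were compared within each replicate, and the sign-flip tests used those differences. Levels rest on few reads: SAMHD1 has 13 in all, and ADARB1 clusters a median of 7.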
